A study of Rattus norvegicus with 24 samples.

Results

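The 3 Nr4a genes, Nr4a1, Nr4a2 and Nr4a3, encode the NR4A orphan nuclear receptors. They were taken by symbol from the deposited table of rat quadriceps muscle, which lists 21067 genes, and each symbol had 1 row. All 3 passed the filter for testing, a mean of at least 0.1 FPKM (fragments per kilobase of transcript, scaled to the mapped fragments of the library) over the 24 libraries, which left 14772 genes. The study asked how embedding catgut, an absorbable thread, at acupoints alters the transcriptome of muscle under exhausting exercise. It sequenced 6 libraries from each of 4 groups of Sprague-Dawley rats, all 6 weeks old at the start and of both sexes. The control group was fed normally and did no treadmill training. The treadmill group trained on a treadmill at rising load and then ran to exhaustion. Catgut group 1 (labelled catgut embedding acupoint 1) and catgut group 2 (catgut embedding acupoint 2) had the thread embedded and did the same exercise and exhaustion run, and the points of catgut group 2 were those of catgut group 1 plus Fei Shu. No group had catgut without exercise, so each catgut group differs from the control group in both the thread and the exercise. Every rat gave 1 library, and muscle was taken after the last run.

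The NR4A receptors are transcription factors of the nuclear receptor family whose ligand pocket is filled by side chains, so that their activity is set largely by how much of the protein is made. Nr4a1 (Nur77) is known in skeletal muscle for promoting genes of glucose uptake, glycogen and glycolysis. Nr4a2 (Nurr1) is best known for the development and upkeep of dopamine neurons, and Nr4a3 (Nor1) has been tied to oxidative metabolism in muscle. All 3 are immediate early genes: beta-adrenergic signalling through cAMP and CREB, and calcium signalling through calcineurin and MEF2, switch them on quickly and briefly. As monomers they bind the element NBRE, and Nr4a1 and Nr4a2 can also pair with the retinoid X receptors.

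In the files' coordinates, whose genome build is not given in the sources used here, Nr4a1 (ENSRNOG00000007607) lies on chromosome 7 from 142905758 to 142920216 on the plus strand. Nr4a2 (ENSRNOG00000005600) lies on chromosome 3 from 43111240 to 43119159 on the minus strand. Nr4a3 (ENSRNOG00000005964) lies on chromosome 5 from 63781801 to 63821637 on the plus strand. The 250 bases before the start of transcription are shown for Nr4a1 and Nr4a2, since the members' levels moved together and CREB is a known regulator of both. They come from RefSeq, build GRCr8: chr7:134259888-134260137 on the plus strand and chr3:62104888-62105137 on the minus strand, 5′ to 3′ along the gene. Capitals mark the half-site of the cAMP response element (TGACG, or CGTCA on the other strand). Nr4a3 had no entry.
Nr4a1: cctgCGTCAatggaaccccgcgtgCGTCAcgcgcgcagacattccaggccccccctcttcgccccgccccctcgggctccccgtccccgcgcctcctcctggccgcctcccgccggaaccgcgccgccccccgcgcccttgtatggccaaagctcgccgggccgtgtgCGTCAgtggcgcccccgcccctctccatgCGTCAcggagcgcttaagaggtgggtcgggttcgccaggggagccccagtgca
Nr4a2: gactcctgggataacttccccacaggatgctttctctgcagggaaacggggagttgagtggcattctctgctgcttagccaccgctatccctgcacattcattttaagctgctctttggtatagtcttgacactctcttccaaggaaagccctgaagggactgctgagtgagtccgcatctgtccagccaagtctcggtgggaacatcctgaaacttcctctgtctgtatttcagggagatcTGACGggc
The Nr4a1 sequence held 4 half-sites, with first bases at −246, −226, −82 and −53 (−1 being the last base before the start), and it was 74.8% G and C. The Nr4a2 sequence held 1, with its first base at −8, and was 52% G and C. Of 33469 rat promoter windows of this length, 18.2% held at least 1 half-site and 0.173% held 4 or more. The full element TGACGTCA (1.59% of windows), the element NBRE, written AAAGGTCA (1.24%), and the box TATAAA (12.9%) were searched on both strands as well and were found in neither sequence. A match of letters is a description, and which of these places is bound was not measured here.

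Total counts per library lay between 45945938 and 78278080. The lowest count of a member in any library was 15 (Nr4a3, treadmill replicate 3), above the limit of detection of 12 counts, so every member was detected in every library. That limit stands for 3 fragments, since the commonest count above 0 was 4, and it covers counting error only. Of the muscle fibre markers, 8 of 10 were in the table, with a summed level of 89555 to 119238 FPKM per library. A list of 7 liver genes stood apart in 3 libraries, at 215 FPKM in control replicate 2, 25.2 in treadmill replicate 2 and 326 in treadmill replicate 3, against 0.131 to 6.11 in the other 21. Arntl, a core clock gene, was at 11.4 and 9.26 FPKM in control replicates 1 and 2 and at 1.11 to 2.32 in the other 4 controls, at 3.88 to 11 in the treadmill group and at 0.804 to 3.75 in the catgut groups. Y-linked transcripts were above 5 FPKM in 3, 3, 3 and 2 of the 6 libraries of the control, treadmill, catgut 1 and catgut 2 groups.

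Nr4a1 was by far the most abundant of the family. Its level was 74.6 ± 31 FPKM (SD, n = 6) in the control group, with a lowest value of 35.1, a median of 77.3 and a highest of 124. In the treadmill group it was 169 ± 81.8 FPKM (lowest 87.8, median 129, highest 274). In catgut group 1 it was 213 ± 65.1 FPKM (lowest 130, median 206, highest 300), and in catgut group 2 it was 207 ± 23.9 FPKM (lowest 170, median 212, highest 234). All 12 catgut libraries thus lay above every control library, while the treadmill group overlapped the controls. Treadmill replicates 2 and 4, at 274 and 271 FPKM, stood above the other 4 treadmill libraries, which were at 87.8 to 136. Catgut group 2 was the most even, with 1.38-fold between its highest and lowest library, against 2.31-fold to 3.54-fold in the other groups.

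Nr4a2 was low in most muscle of unexercised rats. The control group had 0.695 ± 0.821 FPKM (lowest 0.266, median 0.327, highest 2.35). The treadmill group had 6.99 ± 6.17 FPKM (lowest 1.3, median 4.92, highest 17.6). Catgut group 1 had 7.35 ± 5.54 FPKM (lowest 2.08, median 6.56, highest 16.2) and catgut group 2 had 6.35 ± 2.59 FPKM (lowest 2.7, median 6.29, highest 10.7). Control replicate 2 reached 2.35 FPKM, whereas the other 5 controls were at 0.266 to 0.626 and lay below all 18 exercised libraries. Of the 18 exercised libraries, 15 were above every control.

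Nr4a3 had the lowest group means and, by the ratio of its highest to its lowest library, the widest span in each group. It had 0.263 ± 0.238 FPKM in the control group (lowest 0.0598, median 0.193, highest 0.683). In the treadmill group it had 2.3 ± 3.55 FPKM (lowest 0.0571, median 0.319, highest 8.77), a span of 154-fold. Catgut group 1 had 3.35 ± 3.57 FPKM (lowest 0.344, median 2.16, highest 9.93), and catgut group 2 had 1.83 ± 1.14 FPKM (lowest 0.514, median 2.02, highest 3.36). The treadmill mean rests on replicates 2 and 4, at 8.77 and 4.22 FPKM, since the other 4 treadmill libraries, at 0.0571 to 0.361, lay below the highest control, and replicate 3 lay below every control. Of the exercised libraries, 11 of 18 were above every control, and no control was below all of them.

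**Figure D1:**
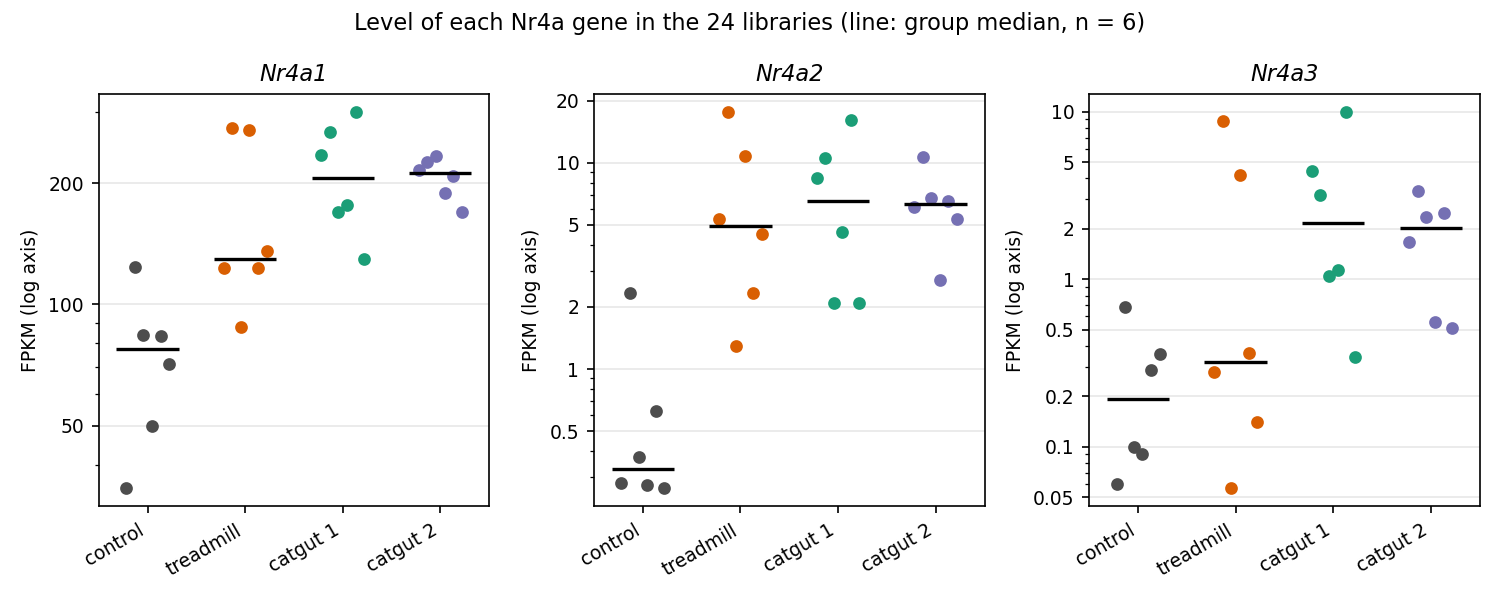
FPKM of Nr4a1, Nr4a2 and Nr4a3 (log axes) in the 6 libraries of each group, in replicate order from left to right within a group, with a line at the group median. The highest control of each gene is replicate 2 (124, 2.35 and 0.683 FPKM), and the treadmill libraries of Nr4a3 fall into 2 high and 4 low values.

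In part, the same libraries were high or low for all 3 members. Control replicate 2 was the highest control for each gene, treadmill replicate 2 the highest and replicate 3 the lowest of the treadmill group, and catgut 1 replicate 5 the highest and replicate 6 the lowest of catgut group 1. The lowest control was replicate 1 for Nr4a1 and Nr4a3 and replicate 6 for Nr4a2. In catgut group 2 the highest library was replicate 3 for Nr4a1 and replicate 2 for Nr4a2 and Nr4a3, and the lowest was replicate 6 for Nr4a1 and Nr4a3 and replicate 4 for Nr4a2. Nr4a1 was above Nr4a2 in 24 of 24 libraries, and Nr4a2 was above Nr4a3 in 23 of 24, the exception being control replicate 6 (0.266 and 0.359 FPKM). By group means, Nr4a1 exceeded Nr4a2 107-fold in the control group and 24.2-fold, 29-fold and 32.6-fold in the treadmill, catgut 1 and catgut 2 groups.

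The first comparison asked what training and the exhaustion run did. Nr4a1 was 2.26-fold higher in the treadmill than in the control group in the fit (log2 fold change 1.18, SE 0.337, 95% interval 0.45 to 1.91). Nr4a2 was 9.6-fold higher (3.26, SE 0.738, interval 1.66 to 4.86), and Nr4a3 was 7.94-fold higher (2.99, SE 1.13, interval 0.54 to 5.43). These did not pass edgeR's quasi-likelihood test with Benjamini-Hochberg adjustment over all genes tested, with adjusted p-values of 0.388, 0.317 and 0.492. So 0 of 3 members were called, where 0.0542% of all genes were. DESeq2, run as an alternative, called Nr4a1 and Nr4a2 (adjusted p = 0.0293 and 0.00229), and limma on log2(FPKM + 1) called 0 of 3. Shares of all genes are given for edgeR only, here and below, so calls by the other tools have no such share beside them. At an unadjusted p under 0.05 all 3 members were counted, with 0.0041, 0.00073 and 0.0204, as were 9.12% of all genes. A two-sided exact permutation test of the group means of log2(FPKM + 1), over all arrangements of the 12 libraries and with a smallest possible p of 0.00216, gave p = 0.00866 for Nr4a1, 0.00433 for Nr4a2 and 0.279 for Nr4a3, unadjusted over the 18 tests made. No member had all treadmill libraries above all controls, which held for 0.325% of the genes tested. In the treadmill group 3, 5 and 2 of 6 libraries lay above every control for Nr4a1, Nr4a2 and Nr4a3. Without control replicate 2, the Nr4a2 difference was 4.22 and was called (adjusted p = 0.0312). Without treadmill replicate 2, that of Nr4a3 was 1.98 (adjusted p = 0.414). The Nr4a3 difference was also smaller with the endothelial level as a covariate (1.71) and by limma on log2(FPKM + 0.1) and log2(FPKM + 1) (1.37 and 0.81). The cause was not tested. With the Arntl level as a covariate, chosen after seeing the data, the 3 differences were 1.15, 2.75 and 2.59, with adjusted p-values of 0.895, 0.827 and 0.908.

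Against the control group, the members were higher in catgut group 1 by similar amounts, without passing the adjustment. The log2 fold change was 1.51 for Nr4a1 (SE 0.298, adjusted p = 0.141), 3.37 for Nr4a2 (SE 0.718, adjusted p = 0.189) and 3.62 for Nr4a3 (SE 0.835, adjusted p = 0.249) in the same edgeR test. Again 0 of 3 members were called, against 0.0203% of all genes, and all 3 had an unadjusted p under 0.05, against 9.84%. DESeq2 called all 3 (adjusted p = 2.78e-05, 0.00064 and 0.00275), and limma 0. Nr4a1 alone of the members had all 6 catgut 1 libraries above all controls (exact permutation p = 0.00216, the smallest possible), as 0.318% of genes did. The exact permutation p was 0.00649 for both Nr4a2 and Nr4a3, with 4 and 5 of 6 libraries above every control. Without control replicate 2, Nr4a2 was called (4.33, adjusted p = 0.0324), and Nr4a1 and Nr4a3 were not (adjusted p = 0.0586 and 0.13). Without catgut 1 replicate 5, Nr4a3 was 2.95 (adjusted p = 0.473), and by limma on log2(FPKM + 1) it was 1.44.

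In catgut group 2, Nr4a1 and Nr4a2 rose against the control group. Nr4a1 rose 2.75-fold (log2 fold change 1.46, SE 0.256, 95% interval 0.91 to 2.01, adjusted p = 0.0375), and Nr4a2 rose 8.89-fold (3.15, SE 0.595, interval 1.86 to 4.44, adjusted p = 0.0417), both by edgeR. Nr4a3 was 6.64-fold higher (2.73, SE 0.657, interval 1.31 to 4.15) and missed the threshold (adjusted p = 0.0851). Hence 2 of 3 members were called, where 0.508% of all genes were, and all 3 had an unadjusted p under 0.05, where 16.4% of genes did. For Nr4a1 and Nr4a2 every catgut 2 library lay above every control (exact permutation p = 0.00216 each), which held for 0.724% of genes, and for Nr4a3 4 of 6 did (exact permutation p = 0.00649).
The 2 calls stood close to the threshold. Nr4a1 kept its call without control replicate 1, 2 or 4 or catgut 2 replicate 4 (adjusted p = 0.0462, 0.00798, 0.0383 and 0.02), and without any 1 of the other 8 libraries, which are control replicates 3, 5 and 6 and catgut 2 replicates 1, 2, 3, 5 and 6, its adjusted p was 0.0599 to 0.0882. Nr4a2 kept its call without control replicate 2 (4.11, adjusted p = 0.000669) or catgut 2 replicate 4 (adjusted p = 0.019), and without any 1 of the other 10 libraries of the comparison its adjusted p was 0.053 to 0.108. Nr4a3 was called without control replicate 2 (3.29, adjusted p = 0.0489) or catgut 2 replicate 4 (2.92, adjusted p = 0.0358).
That the calls fell in this comparison and not in the other 2 against control does not show that the groups differed, and the direct comparisons of the exercised groups follow.

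Catgut group 1 did not differ from the treadmill group in any member beyond the spread between libraries. The log2 difference was 0.33 for Nr4a1 (95% interval −0.28 to 0.94), 0.11 for Nr4a2 (−1.21 to 1.43) and 0.63 for Nr4a3 (−1.68 to 2.94), with edgeR adjusted p-values of 0.934, 0.996 and 0.985. Here 0 of 3 members were called and 0 had an unadjusted p under 0.05, against 0.0474% and 6.93% of all genes, and DESeq2 and limma called 0 as well. For catgut group 2 against the treadmill group, the difference was 0.29 for Nr4a1 (−0.24 to 0.81), −0.10 for Nr4a2 (−1.17 to 0.97) and −0.25 for Nr4a3 (−2.36 to 1.87), with adjusted p-values of 0.752, 0.974 and 0.968 in edgeR. Again 0 of 3 were called and 0 had an unadjusted p under 0.05, against 0.237% and 10.7% of genes, and DESeq2 and limma called 0. The sign of the last 2 values turned on the scale, since the means of log2(FPKM + 1) were higher in catgut group 2 by 0.16 and 0.27 (exact permutation p = 0.764 and 0.677). Between the catgut groups, catgut 2 minus catgut 1 was −0.05 for Nr4a1 (−0.44 to 0.35), −0.22 for Nr4a2 (−1.24 to 0.80) and −0.89 for Nr4a3 (−2.37 to 0.60), each with an adjusted p of 1 in edgeR, and 0.00677% of all genes were called. In this comparison too, 0 of 3 members had an unadjusted p under 0.05 or a call by DESeq2 or limma. For Nr4a3 the intervals of both catgut groups against the treadmill group, and for Nr4a2 that of catgut group 1, leave room for differences of over 2-fold either way, so these data do not show that the exercised groups were alike in them. For Nr4a1 the order of group means was catgut 1, catgut 2, treadmill and control, and only the step down to the control group had an exact permutation p under 0.05.

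**Figure D2:**
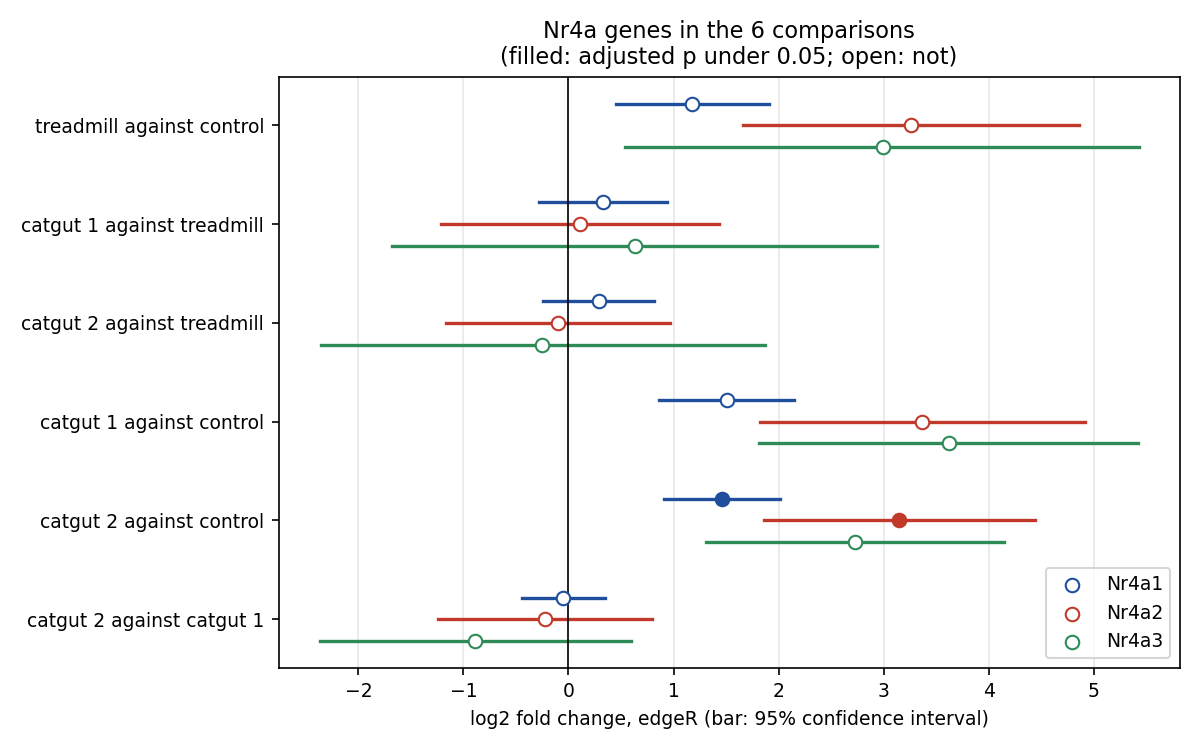
Log2 fold change of Nr4a1, Nr4a2 and Nr4a3 by edgeR in the 6 comparisons, as the first group named against the second (n = 6 each), with bars for the 95% confidence interval and filled points where the adjusted p is under 0.05. The filled points are Nr4a1 (1.46) and Nr4a2 (3.15) in catgut 2 against control, and every interval of a comparison between exercised groups spans 0.

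Whether one member moved more than another was tested on their ratio within each library, log2 of (FPKM + 0.1), with 18 two-sided exact permutation tests. The Nr4a2 to Nr4a1 ratio rose against the control group in each exercised group, from a mean log2 ratio of −6.86 ± 0.71 (SD, n = 6). It was −4.93 ± 0.75 in the treadmill group, a rise of 1.93 (exact permutation p = 0.00433). It was −5.17 ± 0.79 in catgut group 1, a rise of 1.69 (exact permutation p = 0.00649), and −5.10 ± 0.55 in catgut group 2, a rise of 1.76 (exact permutation p = 0.00433). The Benjamini-Hochberg adjusted p over the 18 tests was 0.039 for each. These 3 comparisons share the control libraries. With no pseudocount the rises were 2.22, 1.99 and 2.06, again with adjusted p-values of 0.039, and with a pseudocount of 1, which is above most control values of Nr4a2, they were 0.84, 0.56 and 0.58 with adjusted p-values of 0.0682, 0.239 and 0.171. Nr4a2 thus differed from the control group by more than Nr4a1 did, at the smaller pseudocounts.
The Nr4a3 to Nr4a1 ratio did not pass in any comparison, with a difference from control of 0.21 in the treadmill group, 1.23 in catgut group 1 and 0.79 in catgut group 2 (adjusted p = 0.837, 0.143 and 0.234, exact permutation tests). The Nr4a3 to Nr4a2 ratio was lower than in the control group by 1.72 in the treadmill group (difference −1.72, exact permutation p = 0.0216, adjusted 0.0779) and by 0.97 in catgut group 2 (difference −0.97, exact permutation p = 0.013, adjusted 0.0584), with adjusted p-values of 0.039 for both at a pseudocount of 1 and of 0.167 and 0.429 with none. In 4 of the 6 treadmill libraries, replicates 1, 3, 5 and 6, Nr4a2 was above at least 5 controls, while Nr4a3 was below the highest control.

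**Figure D3:**
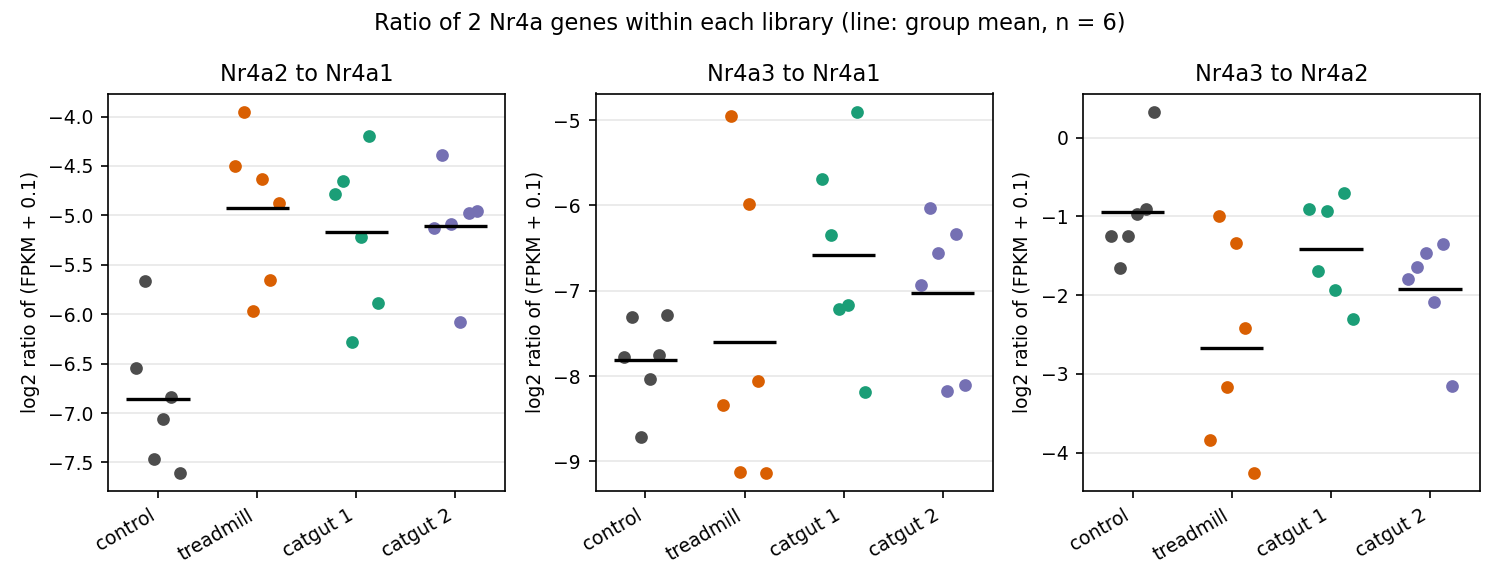
Log2 ratio of 2 members within each library, from FPKM + 0.1, by group in replicate order, with a line at the group mean (n = 6). The mean Nr4a2 to Nr4a1 ratio is −6.86 in the control group and −5.17 to −4.93 in the exercised groups, and the Nr4a3 to Nr4a1 ratio spreads most in the treadmill group.

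Across libraries the members went together. Over all 24 libraries, Pearson's r of log2(FPKM + 1) was 0.92 for Nr4a1 and Nr4a2 (Spearman's rho 0.95), 0.81 for Nr4a1 and Nr4a3 (rho 0.92) and 0.86 for Nr4a2 and Nr4a3 (rho 0.87), each with a permutation p of 1e-05, the smallest that 100000 permutations can give, and an adjusted p of 5e-05 over the 15 correlations computed. Without the 2 libraries farthest from the median, r was 0.93, 0.86 and 0.87. These pooled values hold the difference between control and exercised groups, so the values within groups of 6 are given as well. For Nr4a1 and Nr4a2, r was 0.74 in the control, 0.94 in the treadmill, 0.96 in the catgut 1 and 0.61 in the catgut 2 group, with rho of 0.71, 0.83, 1.00 and 0.83. Adjusted p-values of r, from all 720 pairings (exact permutation), were 0.0982, 0.0187, 0.0187 and 0.203.
For Nr4a1 and Nr4a3, r in the same order was 0.79, 0.94, 0.95 and 0.88 (rho 0.77, 0.83, 0.94 and 0.71, and adjusted exact permutation p of r 0.0753, 0.0187, 0.0187 and 0.0379). For Nr4a2 and Nr4a3 it was 0.85, 0.90, 0.94 and 0.84 (rho 0.37, 0.83, 0.94 and 0.89, and adjusted exact permutation p of r 0.0694, 0.0187, 0.0187 and 0.0187). Within the control group this last relation rested on 2 libraries, since r was −0.35 without the 2 farthest. Leaving out the 2 farthest also took Nr4a1 and Nr4a3 to 0.37 in the control group, 0.59 in the treadmill group and 0.31 in catgut group 2, and Nr4a1 and Nr4a2 to 0.40 in catgut group 2.

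**Figure D4:**
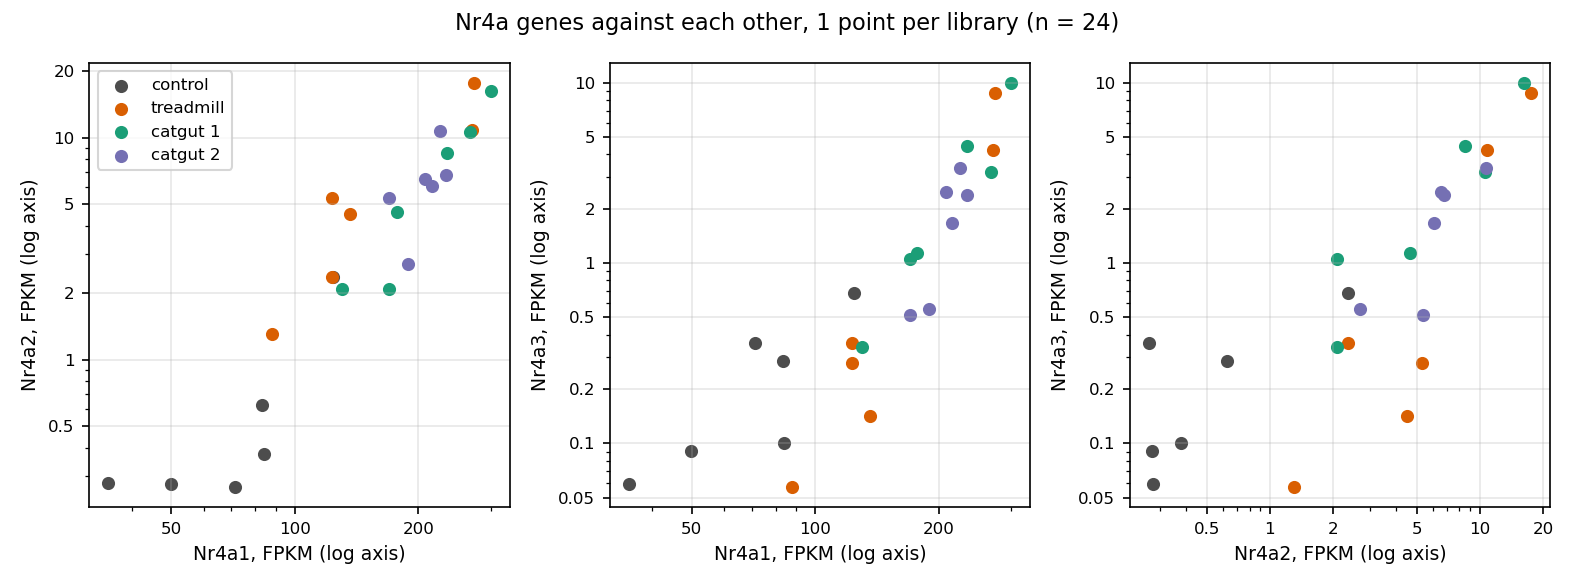
FPKM of each pair of members (log axes), 1 point per library (n = 24), coloured by group. Treadmill replicate 2 and catgut 1 replicate 5 lie at the upper end for every pair, while treadmill replicates 1 and 6 have 0.278 and 0.141 FPKM of Nr4a3 at 5.32 and 4.52 FPKM of Nr4a2.

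Among nuclear receptors, Nr4a1 stood first. Of the 43 nuclear receptor genes of the list that the table holds, the members included, it had the highest mean FPKM in every group, and it ranked first in each of the 18 exercised libraries and in 4 of 6 controls. Over all libraries its mean was 166 FPKM, ahead of Esrra, the estrogen-related receptor that drives mitochondrial genes (49.9), and Nr1d1, the clock repressor REV-ERB alpha (45.1). Nr4a2 ranked 27th by mean in the control group and 12th or 13th in the exercised groups. Nr4a3 ranked 33rd in the control group and 20th, 19th and 25th in the treadmill, catgut 1 and catgut 2 groups.
By size of log2 fold change against control, the members held places 1, 2 and 4 among the 34 receptors tested in the treadmill group and places 1 to 3 in both catgut groups. Esr1, the estrogen receptor alpha, took place 3 in the treadmill group, with 0.0958 FPKM against 0.31 in the control group (−1.60, edgeR adjusted p = 0.354). None of the other 31 receptors passed edgeR's adjusted test in any of the 6 comparisons (DESeq2 called 1 in each of 3 comparisons, limma 0), and their median log2 fold change in treadmill against control was 0.12, beside −0.00 for all genes. At an unadjusted p under 0.05, 6 of these 31 differed there, 4 higher and 2 lower, where 9.12% of all genes did.

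**Figure D5:**
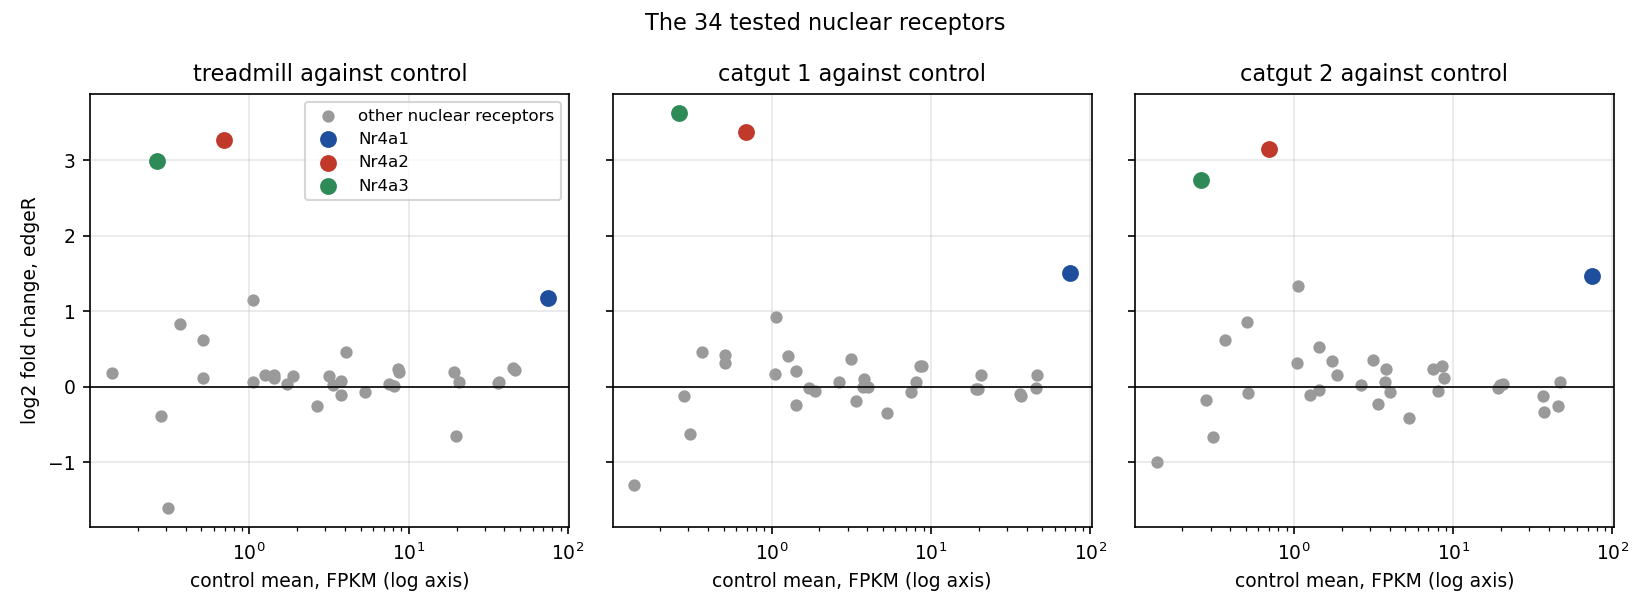
Mean FPKM in the control group (log axis) against the edgeR log2 fold change of each exercised group for the 34 tested nuclear receptors, with the 3 members in colour. Nr4a2 and Nr4a3 lie at 2.73 to 3.62 from a low control level, and Nr4a1 lies at 1.18 to 1.51 from the highest.

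Of 38 genes of the pathways that switch the family on (receptors, protein kinase A, CREB, calcineurin, MEF2 and their regulators), none passed edgeR's adjusted test in any comparison, and the median log2 fold change against control was 0.03, −0.03 and −0.03 in the treadmill, catgut 1 and catgut 2 groups. At an unadjusted p under 0.05, 3, 5 and 3 were higher and 1, 3 and 6 lower. Of all genes, 9.12%, 9.84% and 16.4% were counted so in either direction. DESeq2 called 1, 0 and 3 of the list and limma 0. Crem, whose short product ICER represses CREB targets, was at 3.46 ± 0.841 FPKM in catgut group 2 and 2.46 ± 0.614 in the control group (log2 fold change 0.47, edgeR adjusted p = 0.204).
Of 16 tested partners and coregulators, again none passed in any comparison by edgeR. Against control, 2, 0 and 3 had an unadjusted p under 0.05, where 9.12%, 9.84% and 16.4% of all genes did. DESeq2 and limma made 0 calls there. Rxra and Rxrg, retinoid X receptors, were abundant at 37 and 36.4 FPKM in the control group. Rxra was at 29.6 ± 3.65 FPKM in catgut group 2 (−0.33, edgeR adjusted p = 0.163). Nr0b2, which represses other receptors, was at 2.64 ± 1.61 against 1.06 ± 0.574 FPKM there (1.34, edgeR adjusted p = 0.198).

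Some genes known to respond to cAMP and CREB, and some early response genes, rose in exercised groups. Of 22 cAMP and CREB responsive genes tested, 0, 0 and 3 rose in the treadmill, catgut 1 and catgut 2 groups against control and none fell, with 11, 12 and 14 higher at an unadjusted p under 0.05 and medians of 0.72, 0.77 and 0.57. DESeq2 called 7, 7 and 8, and limma 0, 1 and 4, without a share of all genes for these tools. By edgeR, 0.0542%, 0.0203% and 0.508% of all genes were called in either direction, and 9.12%, 9.84% and 16.4% had an unadjusted p under 0.05. Members below the control level included Per1 in the treadmill group (−0.44, edgeR adjusted p = 0.771) and Pck1 in catgut group 1 (−0.85, edgeR adjusted p = 0.772). The 3 were Csrnp1, a nuclear immediate early protein (5.66 ± 1.04 against 1.58 ± 0.674 FPKM, log2 fold change 1.86, edgeR adjusted p = 0.0124), Sik1, the salt-inducible kinase that restrains CREB coactivators (10.9 ± 3.1 against 2.12 ± 1.31, 2.40, edgeR adjusted p = 0.0195), and Rgs2, a brake on G protein signalling (16.3 ± 10.2 against 4.36 ± 1.28, 1.89, edgeR adjusted p = 0.0417).
The early response list shares genes with the former list. Csrnp1, Sik1 and Rgs2, the only called genes of the former, are in both and are counted again here. Of 30 early response genes, 4, 1 and 9 rose against control and none fell. At an unadjusted p under 0.05, 24, 21 and 23 were higher, with medians of 1.5, 1.40 and 1.32. The 4 in the treadmill group were Ccn1, Arc, Egr3 and Ier2, and the 1 in catgut group 1 was Arc, a cytoskeletal protein best known from neurons. Medians over all genes were at most 0.01 from 0, and the shares of all genes were those given for the former list. Early response genes were thus called in all 3 comparisons against control, with more calls in catgut group 2, whose background was also the highest.

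The genes whose level was most like each member's, by Pearson's r of log2(FPKM + 1) over the 24 libraries and among 12471 genes, were the following. For Nr4a1 they were Apold1 (r = 0.92), an endothelial early response gene, then Sik1, Siah2, Klf4 and Csrnp1 (0.89 each). For Nr4a2 they were Plk3, Ppp1r15a and Klf4 (0.94 each), Sik1 (0.92) and Atf3 (0.91). For Nr4a3 they were Hsp90aa1, an inducible chaperone (0.91), Maff and Mafk (0.90 each), Plaur (0.88) and Plk3 (0.87). Klf4 and Sik1 stood in the lists of both Nr4a1 and Nr4a2, and Plk3 in those of Nr4a2 and Nr4a3. Of the genes named, Sik1, Klf4, Csrnp1, Atf3 and Maff belong to the early response list used above, and the others do not. With each group's mean taken off first, r of the leading genes was 0.78 for Apold1, 0.87 for Plk3 and 0.91 for Hsp90aa1. It fell most for genes like Nr4a1, to 0.70 for Sik1 and 0.72 for Csrnp1, which were then 14th and 11th by r. All points share libraries, and the values are a description.

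Of 26 muscle genes known as targets of Nr4a receptors, in glucose uptake, glycogen, glycolysis and fat use, 0 passed edgeR's test against control in any exercised group, with 0, 3 and 5 higher and 0, 0 and 5 lower at an unadjusted p under 0.05. Of all genes, 9.12%, 9.84% and 16.4% had an unadjusted p under 0.05 in either direction. DESeq2 called 0, 0 and 4 of the list and limma 0. Their medians were 0.08, −0.03 and −0.04. Slc2a4, the insulin-responsive glucose transporter GLUT4, was at 187 ± 31.5 FPKM in the control group, 219 ± 32.7 in the treadmill group, 257 ± 48.8 in catgut group 1 and 255 ± 18.7 in catgut group 2 (edgeR log2 fold changes against control of 0.27, 0.45 and 0.44, adjusted p = 0.654, 0.426 and 0.164). Gys1, muscle glycogen synthase, was at 86.1 ± 13.5 FPKM in the control group and 107 ± 15 and 108 ± 12.6 in the treadmill and catgut 1 groups (0.35 and 0.32, edgeR adjusted p = 0.555 and 0.502). Gbe1, the glycogen branching enzyme, was at 23 ± 3.05 against 15.8 ± 2.47 FPKM in catgut group 2 (0.55, edgeR adjusted p = 0.112). Lpl, lipoprotein lipase, was at 101 ± 36.6 against 44.8 ± 21.9 FPKM there (1.17, edgeR adjusted p = 0.136). Below the control level in catgut group 2 were Pygm, muscle glycogen phosphorylase (3375 ± 489 against 4235 ± 434 FPKM, −0.34, edgeR adjusted p = 0.192), Phkg1, the catalytic subunit of phosphorylase kinase (116 ± 25.5 against 149 ± 4.86, −0.38, edgeR adjusted p = 0.131), and Lpin1 (12.6 ± 2.5 against 20.2 ± 6.22, −0.69, edgeR adjusted p = 0.132).
Against the treadmill group, Ucp3, a mitochondrial carrier linked to fat oxidation, and Lpin1, a phosphatidate phosphatase and coactivator, fell in catgut group 2 by 1.96 and 0.88 on the log2 scale (edgeR adjusted p = 0.00589 and 0.0421), in the comparison where the members differed by −0.25 to 0.29. Of 19 clock genes, 0 passed against control by edgeR, DESeq2 or limma. There 6, 0 and 2 had an unadjusted p under 0.05, where 9.12%, 9.84% and 16.4% of all genes did. Against the treadmill group, 2 rose in catgut group 1, where 0.0474% of all genes were called. In catgut group 2, 2 rose and 2 fell against the treadmill group, where 0.237% of all genes were called.

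In bulk muscle, fewer cells of a type and less RNA per cell cannot be told apart, and the cells that made the Nr4a transcripts were not identified. Marker lists of other cell types are therefore given beside the members. All 6 smooth muscle and pericyte markers were in the table, and their summed level was 88.8 to 167, 112 to 235, 118 to 322 and 140 to 253 FPKM in the group order used above (control, treadmill, catgut 1, catgut 2). Of them, only Rgs5 rose against control at an adjusted p under 0.05 by edgeR, in catgut group 2, where 0.508% of all genes were called. In each exercised group 3 markers were higher at an unadjusted p under 0.05, and 0, 1 and 0 were lower. Of all genes, 9.12%, 9.84% and 16.4% were counted so in either direction. The markers' median log2 fold changes were 0.63, 0.63 and 0.67, beside −0.00, −0.01 and −0.00 for all genes. The endothelial list (7 of 8 genes) summed to 62.6 to 135, 61.3 to 110, 56.2 to 118 and 70.2 to 106 FPKM in the same order. The macrophage list (7 of 7) summed to 3.56 to 11.6, 4.33 to 30.2, 5 to 10.4 and 2.82 to 16.8 FPKM, and the neutrophil list (6 of 6) to 0.828 to 2.35, 0.938 to 6.41, 0 to 3.7 and 1.81 to 4.48 FPKM. The erythroid list (4 of 8) summed to 313 to 578, 450 to 1743, 370 to 1685 and 328 to 1872 FPKM. With the endothelial level as a covariate, chosen after seeing the data, Nr4a1 and Nr4a2 in catgut 2 against control were 1.62 and 3.38 (adjusted p = 0.0664 and 0.118), and with Arntl as a covariate they were 1.52 and 3.96 (adjusted p = 0.0731 and 0.0443). Without the libraries in which liver transcripts stood apart, also chosen after seeing the data and here control replicate 2 alone, Nr4a1, Nr4a2 and Nr4a3 in this comparison were 1.68, 4.11 and 3.29 (edgeR adjusted p = 0.00798, 0.000669 and 0.0489). In treadmill against control, without all 3 such libraries, they were 1.43, 4.06 and 2.85 (adjusted p = 0.23, 0.0192 and 0.351). The part of the smooth muscle, macrophage, neutrophil and erythroid levels in these results was not tested.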

How the data were processed

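The authors sequenced quadriceps RNA of 24 rats, 6 per group, and the samples' labels gave the groups. Per gene and library, the deposited table holds a count (a whole number) and an FPKM, in which the authors had scaled for transcript length and for the mapped fragments of the library. The submitters' processing notes name HISAT2 2.0 and StringTie 1.3.0, and the build, annotation and counting step are not given in the sources used here. The methods state that groups were balanced for sex, while Y-linked transcripts were above 5 FPKM in 2 of 6 libraries of catgut group 2. The labels tie no 2 libraries to 1 rat, and the tests of group differences set them against the spread between these libraries.

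Counts were used as deposited. Genes with a mean of at least 0.1 FPKM over the 24 libraries were tested. Each comparison was fitted on its own 2 groups by the two-sided quasi-likelihood test of edgeR 4.0.16 (R 4.3.3, TMM), with Benjamini-Hochberg adjustment over all genes tested. Standard errors were derived from the F statistic and 95% intervals from the t distribution. Treadmill against control and each catgut group against treadmill are the study's comparisons, and the other 3 were added. DESeq2 1.42.0 and limma 3.58.1 were run as alternatives. Other alternatives were another filter or none, counts divided by 4, robust fitting and 1 fit over all 4 groups. The replicate block, covariates and each library left out in turn were run as well. Exact permutation tests were made with numpy 2.4.6 and figures with matplotlib 3.10.9. The fits were tested on simulated counts, and the permutation tests on fixed values with known answers. Genes most like a member were the 5 with the highest Pearson's r. In each list and comparison, the genes that may be named are those most strongly changed by p. Ier2, Rgs5, Ucp3 and Lpin1 were named after their values were seen, to complete a short count. The members and gene lists were chosen with earlier results of these data known.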

Additional observations from a re-analysis of the deposited data

Results flagged for a closer look

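Nr4a2 in control replicate 2 stood apart from its group. It was at 2.35 FPKM there, and the other 5 control libraries were at 0.266 to 0.626 FPKM. The gap to the nearest library was 0.827 of the range of the group, above the critical value of 0.625 for 6 libraries. Such a gap was looked for in 12 groups of libraries (3 genes in 4 groups). For normally distributed values, chance gives one in about 1 of 20 groups. The gap was measured on FPKM without a log scale, and the chance rate for such values was not tested. The same library had the highest Nr4a1 (124 FPKM) and Nr4a3 (0.683 FPKM) of the control group, the summed liver list at 215 FPKM and Arntl at 9.26 FPKM. What part these had in its Nr4a2 level was not tested.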

How the results depend on the processing

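Each log2 fold change of a member against control kept its direction under every alternative run, and calls at an adjusted p under 0.05 moved. In treadmill against control, DESeq2 gave 1.18 for Nr4a1 and 3.27 for Nr4a2, both called, and leaving out the libraries with liver transcripts gave 4.06 for Nr4a2, called. In catgut 1 against control, DESeq2 gave 1.51, 3.37 and 3.61 for the 3 members, 1 fit over all 4 groups gave 1.51 for Nr4a1 and 3.37 for Nr4a2, and leaving out the liver libraries gave 4.33 for Nr4a2, all called. In catgut 2 against control, Nr4a1 was called in 12 of 15 other settings and Nr4a2 in 11 of 15. Nr4a1 was not called with the replicate block (1.57), Arntl (1.52) or the endothelial level (1.62) as a covariate, nor Nr4a2 with no filter (3.14), robust fitting (3.15), the block (3.62) or the endothelial level (3.38). Nr4a3 was called there by DESeq2 (2.73) and without the liver libraries (3.29). Nr4a3 in treadmill against control moved by over 1.5 times without a call, to 1.55 with the replicate block, 1.71 with the endothelial level and 1.37 and 0.81 by limma. Other sizes moved too. By limma on log2(FPKM + 1), Nr4a2 was 1.98, 2.11 and 2.14 in the treadmill, catgut 1 and catgut 2 groups against control. The main fit gave 3.26, 3.37 and 3.15, and limma on log2(FPKM + 0.1) gave 3.09, 3.26 and 3.33. Nr4a3 by limma on log2(FPKM + 1) was 1.44 and 1.07 in catgut groups 1 and 2 against control. The cause was not tested.

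With 1 library left out, Nr4a2 was 2.85 to 4.22 in treadmill against control and 3.01 to 4.33 in catgut 1 against control, and Nr4a3 was 1.98 to 3.56 and 2.95 to 4.18 there. In catgut 2 against control, Nr4a1 was 1.31 to 1.68, Nr4a2 2.97 to 4.11 and Nr4a3 2.51 to 3.29. Between exercised groups, signs turned around 0 with no call. Nr4a2 was −0.25 to 0.52 and Nr4a3 −0.04 to 1.64 in catgut 1 against treadmill, Nr4a2 was −0.32 to 0.29 and Nr4a3 −0.50 to 0.74 in catgut 2 against treadmill, and Nr4a1 was −0.16 to 0.05 and Nr4a2 −0.42 to 0.14 in catgut 2 against catgut 1. For ratios, Nr4a3 to Nr4a1 was −0.32 to 0.52 in treadmill against control, and Nr4a2 to Nr4a1 was −0.38 to 0.02 in catgut 2 against treadmill and −0.16 to 0.26 in catgut 2 against catgut 1.

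Signs also turned in catgut 2 against treadmill, for Nr4a1 with the Arntl covariate (−0.02), for Nr4a2 with the block (0.25), limma at a pseudocount of 1 (0.16) or 0.1 (0.25), Arntl (0.95) and no liver libraries (0.05), and for Nr4a3 with the same 5 settings (1.49, 0.27, 0.99, 1.20 and 0.44). In catgut 2 against catgut 1 they turned for Nr4a1 with the block (0.00), limma at both pseudocounts (0.01 each) and Arntl (0.01), and for Nr4a2 with the block (0.05) and limma (0.03 and 0.07). At a pseudocount of 1, the Nr4a3 to Nr4a1 ratio was −0.34, −0.12 and −0.49 in the treadmill, catgut 1 and catgut 2 groups against control and −0.15 in catgut 2 against treadmill, and the control correlation of Nr4a2 and Nr4a3 was −0.35 without 2 libraries.

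The replicate numbers did not pair the libraries. Same-numbered libraries of 2 groups had correlated deviations of −0.45 to 0.27, and 0 to 3 of 6 pairs were above 0.1. The replicate block was therefore an alternative only. The numbers did follow the Y-linked level in part. It was above 5 FPKM in replicates 4, 5 and 6 of the control, treadmill and catgut 1 groups, and in replicates 1 and 5 of catgut group 2. Nr4a3 had counts as low as 15, and its SE was the largest of the members in every comparison. The part of low counts in this was not tested.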
